A study of Mus musculus with 2 samples.

Results

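Glycolysis and lactate transport were followed through 10 genes in single cells of the mouse retina: Hk2, Aldoa, Tpi1, Pgk1, Eno1 and Pkm of the glycolytic path, Ldha and Ldhb of lactate dehydrogenase, and the lactate transporter genes Slc16a1 (MCT1) and Slc16a3 (MCT4). The genes were taken by symbol from the deposited count tables, where the 10 symbols matched 11 of 32285 gene rows. Aldoa had 2 rows, and the one with identifier ENSMUSG00000114515, with few counts, was kept apart. Retinas of mice kept under short-wavelength light were set against retinas of mice kept under full-spectrum white light. Exposure began at postnatal day 14 in both groups and lasted 2 weeks. Each light condition is represented by 1 droplet single-cell library, so every difference between the conditions is a difference between 2 libraries and has no replicate check. The labels give neither the strain and sex of the mice nor the number of mice behind a library.

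Photoreceptors are known for aerobic glycolysis: they break glucose down to lactate although oxygen is present. Hexokinase carries out the first step of the path and pyruvate kinase the last, and lactate dehydrogenase, a tetramer of A and B subunits, interconverts pyruvate and lactate. The subunit encoded by Ldha is usually tied to the formation of lactate and that of Ldhb to its oxidation. Lactate crosses membranes with a proton through monocarboxylate transporters, of which MCT1 binds lactate more tightly than MCT4, and both need the chaperone basigin (Bsg) to reach the cell surface.

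The genes lie on 7 chromosomes of the mm10 build in the GENCODE annotation. Slc16a1 is at chr3:104638668-104658462, Eno1 at chr4:150236721-150248879, Hk2 at chr6:82725025-82774454, Tpi1 at chr6:124810586-124814296 and Ldhb at chr6:142490249-142507957. Ldha is at chr7:46841475-46855627, Aldoa at chr7:126795234-126800751, Pkm at chr9:59656368-59679375, Slc16a3 at chr11:120948480-120960868 and Pgk1 at chrX:106187100-106203699. Tpi1 overlaps Spsb2, Aldoa overlaps Fam57b and Hk2 overlaps Gm17034, each on the other strand. Pkm overlaps Gm49759, and Slc16a1 overlaps Gm43581 and Gm43585, on the same strand. Whether counting used the strand or included introns is not given in the sources used here, so reads of such neighbours may not be told apart.

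The 250 bases before the transcription start differed between the isoform genes in short motifs, and the windows of the 4 isoform genes are shown for that reason. All 10 genes matched the RefSeq promoter table (GRCm38.p6, the assembly of mm10), and the window nearest to a GENCODE principal start was used. The sequence ACGTG, the core of the element bound by hypoxia-inducible factors, was searched on both strands, so that its reverse complement CACGT also counts. The palindrome CACGTG, the E-box core, holds both. Capitals mark these matches, and each sequence is read 5′ to 3′ on the strand of its gene.
Ldha, chr7:46845554-46845803, plus strand: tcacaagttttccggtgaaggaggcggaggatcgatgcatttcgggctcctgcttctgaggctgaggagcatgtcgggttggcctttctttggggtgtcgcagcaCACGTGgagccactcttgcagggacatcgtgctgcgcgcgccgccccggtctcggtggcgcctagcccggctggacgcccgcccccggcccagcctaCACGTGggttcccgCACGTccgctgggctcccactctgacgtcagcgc
Ldhb, chr6:142507958-142508207, minus strand: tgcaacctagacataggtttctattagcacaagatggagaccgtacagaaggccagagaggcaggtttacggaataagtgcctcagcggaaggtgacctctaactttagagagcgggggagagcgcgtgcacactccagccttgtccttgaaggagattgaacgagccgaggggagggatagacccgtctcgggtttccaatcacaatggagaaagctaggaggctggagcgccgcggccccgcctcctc
Slc16a1, chr3:104638414-104638663, plus strand: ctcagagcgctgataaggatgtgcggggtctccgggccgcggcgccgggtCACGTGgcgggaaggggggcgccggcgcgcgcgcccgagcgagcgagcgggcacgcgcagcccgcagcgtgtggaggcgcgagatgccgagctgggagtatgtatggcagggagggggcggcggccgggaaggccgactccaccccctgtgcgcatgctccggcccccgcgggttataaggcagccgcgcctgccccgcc
Slc16a3, chr11:120948817-120949066, plus strand: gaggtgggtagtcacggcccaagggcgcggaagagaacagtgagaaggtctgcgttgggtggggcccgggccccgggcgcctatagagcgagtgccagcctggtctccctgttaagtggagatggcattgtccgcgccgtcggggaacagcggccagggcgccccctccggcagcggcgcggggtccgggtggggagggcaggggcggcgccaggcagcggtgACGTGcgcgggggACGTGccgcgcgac
The Ldha window held the motif at 3 places, 2 of them CACGTG, while the Ldhb window held none. The Slc16a1 window held 1 CACGTG and the Slc16a3 window held ACGTG at 2 places. The windows of Hk2 and Pgk1 held 2 places each and that of Aldoa 1, and those of Tpi1, Eno1 and Pkm held none. In all, 6 of the 10 windows held ACGTG, against 16.6% of 32851 promoter windows of the same length, and 2 held CACGTG, against 6.02%. The photoreceptor motif GGATTA, of the kind bound by CRX, was in none of the 10 windows used, on either strand, and in 6.25% of all windows. This rests on the choice of window for Ldha: a second Ldha window, at chr7:46846832-46847081 and 49 bases from a principal start against 35 for the one shown, held GGATTA once and no ACGTG. The count of 6 windows with ACGTG also rests on such choices. A second Aldoa window, at chr7:126800448-126800697, lay 0 bases from a principal start, like the one used, and held no ACGTG. A second Pkm window, 859 bases from a principal start against 208 for the one used, held ACGTG once. The Aldoa, Ldha and Slc16a3 windows lie inside the annotated spans of these genes, which have starts further upstream, and the Slc16a3 window runs a few bases into a 5′ UTR exon of another transcript. The windows of Tpi1, Pkm and Eno1 lay 138, 208 and 244 bases from a principal start. The members' windows were 55.6% to 76.4% G and C, against a median of 52.4% over all windows, and the motif shares were not matched for this. A match is a match of letters and not a measured binding site.

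The libraries held 16106 barcodes and 51681469 UMIs (unique molecules counted) under short-wavelength light, against 5707 barcodes and 20952589 UMIs under white light, with medians of 2434 and 2784 UMIs per barcode. The libraries shared 26 cell barcodes. Cells were gated by UMIs of marker genes, which gave 14750 rods under short-wavelength light and 4982 under white light, 332 and 104 cones, 106 and 33 rod bipolar cells, and 72 and 30 Müller glia. Small numbers in the last 2 gates limit every value there. Of the markers, Arr3, which the cone gate used, was at 8501 and 8040 CPM (CPM being the usual scaling of a gene's UMIs to the total of the gate; here and below the first of a pair is short-wavelength light and the second white light) in cones and at 56.7 and 44.1 CPM in rods, and 2 of 4 astrocyte markers, Gfap and Pax2, had 0 UMIs in the Müller glia of both libraries. The summed level of the 4 was 59.7 and 59.9 CPM in Müller glia, against 3.88 and 3.41 CPM in rods. The 7 pigment epithelium markers summed to 4675 and 5525 CPM there, against 12.5 and 15.4 CPM in rods, with Rpe65, Lrat and Best1 at 0 in Müller glia of both libraries. Ttr and Rgr were also at 0 in white-light Müller glia, so the sum there came from Dapl1 and Trpm3 alone. The 8 endothelium and pericyte markers summed to 2291 and 2154 CPM, against 668 and 720 CPM in rods, with Cldn5, Kcnj8 and Rgs5 at 0 in both. Whether these sums reflect RNA of other cells in the Müller gate was not tested. RNA of rods, the most numerous cells, was found in every gate. The summed level of 6 rod genes stood at 17.4% and 15.6% of its rod level in cones, 11.9% and 11.1% in rod bipolar cells, and 12.6% and 12.7% in Müller glia. A gene that only rods express would be read at about these shares, and levels at or below them are taken as background. The gates themselves limit these 6 genes, to at most 0.4% of UMIs outside rods and at least 0.5% in rods. The shares are thus partly set by the gates. Intervals in parentheses are exact 95% intervals that cover counting error only. UMIs were read at the 3′ end and are not scaled by length, so levels are compared between cells for a gene, and the share of one gene in a pair is compared between cells rather than read as a share of protein.

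Together the 10 genes took 0.443% of rod UMIs in the short-wavelength library (0.441 to 0.445) and 0.436% in the white-light library (0.432 to 0.439). The share was higher in cones, at 0.521% and 0.513%, and lower in rod bipolar cells, at 0.282% and 0.252%, and in Müller glia, at 0.232% and 0.225%. The pattern by cell was thus alike in both libraries, and it was not the same for every step of the path. In cones 3 genes stood at least 1.5-fold above rods in each library, where 18.8% (short-wavelength) and 17.9% (white) of all genes did, and 1 stood as far below, where 27.3% and 30.8% of all genes did. In Müller glia 6 genes stood at least 1.5-fold below rods in each library, against 39.6% and 42.3% of all genes, and 2 stood as far above, against 24.9% and 21.6%. In rod bipolar cells 5 (short-wavelength) and 6 (white) stood as far below, against 40.1% and 42.1% of all genes, and 2 stood as far above in each, against 22.4% and 20.7%.

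**Figure D1:**
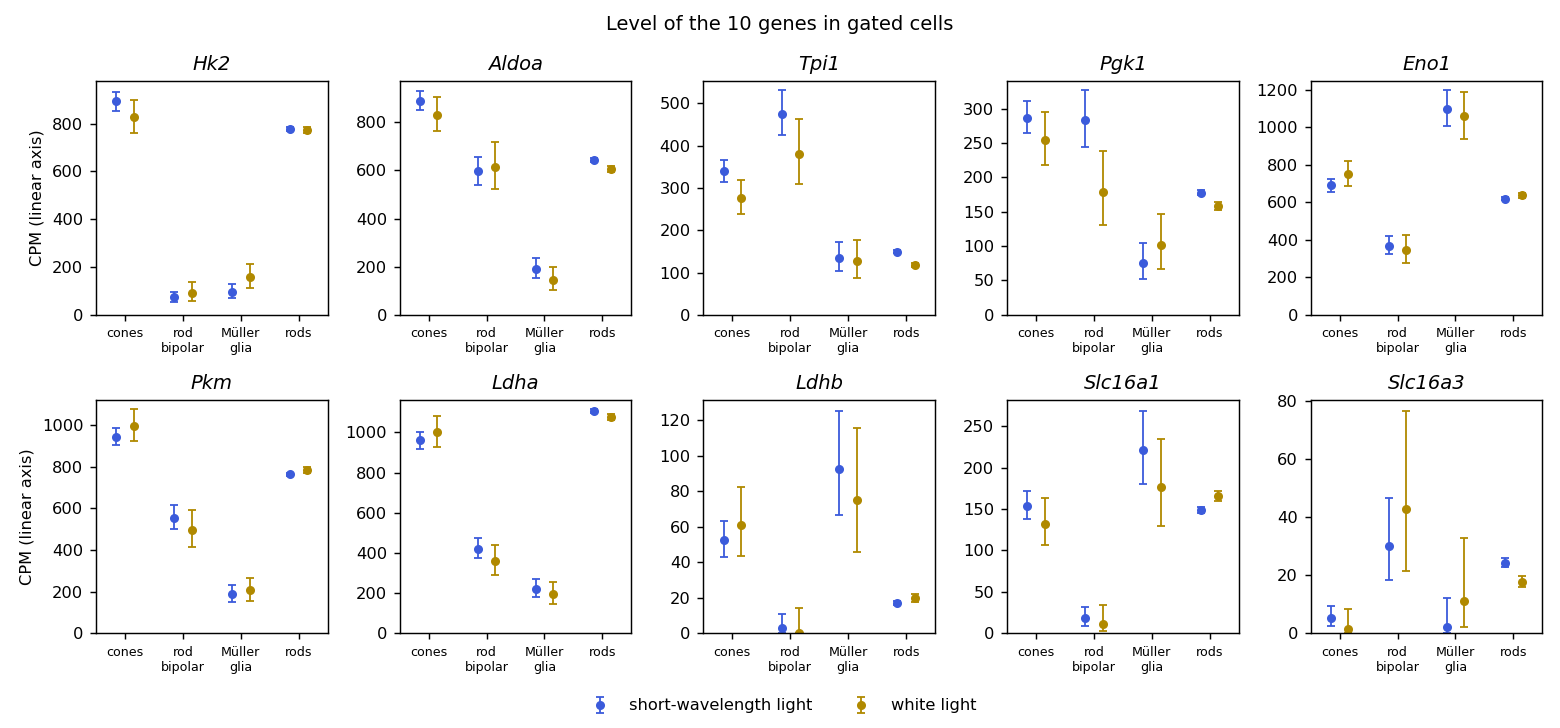
Level of each of the 10 genes in CPM (linear axis, from 0) in cones, rod bipolar cells, Müller glia and rods; points are the summed UMIs of 1 library's gate, short-wavelength light in blue on the left and white light in ochre on the right, and bars are exact Poisson 95% intervals. Hk2, Pkm and Ldha were high in both photoreceptor types, Tpi1 was highest in rod bipolar cells and Eno1 was highest in Müller glia.

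Hk2, the hexokinase of the first step, was high in photoreceptors and low in the other neurons and glia of the 4 gates. In cones it stood at 893 CPM (short-wavelength light) and 828 CPM (white light), and in rods at 779 and 772 CPM. In rod bipolar cells it was read at 73.7 and 93.3 CPM, which is 9.46% and 12.1% of the rod level, about what rod RNA alone gives. In Müller glia it was read at 95.01 and 157 CPM, or 12.2% and 20.4% of rods, the first at the rod background and the second above it. Hk1, the other hexokinase gene with many UMIs, was less low in rod bipolar cells, at 230 and 237 CPM, against 372 and 381 CPM in rods, while in Müller glia it was low as well, at 68.5 and 101 CPM. As read, Hk2 made up 77.3% and 74.0% of Hk2 and Hk1 UMIs in cones and 67.7% and 67.0% in rods. The share was 58.1% (46.1 to 69.5) and 60.9% (48.4 to 72.4) in Müller glia. In rod bipolar cells it was 24.3% (18.5 to 30.8) and 28.2% (19.0 to 39.0). With rod RNA taken away, an alternative chosen after the data were seen, it was 0% and 3.83% in rod bipolar cells. In Müller glia it was then 0% and 52.9%, so the shares as read in these gates are not taken as those of the cells themselves.

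The aldolase gene Aldoa, which splits the six-carbon sugar, was at 889 and 832 CPM in cones, 596 and 614 CPM in rod bipolar cells, 190.0 and 146 CPM in Müller glia, and 644 and 606 CPM in rods. Its intervals in rod bipolar cells and rods overlapped in both libraries. Müller glia had UMIs of Aldoc beside it: Aldoa supplied 44.6% (37.4 to 51.9) and 39.4% (29.7 to 49.7) of the UMIs of the pair there, against 85.0% and 84.5% in rods. Rod bipolar cells lay at the other end, at 95.9% and 98.8%.

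Tpi1, which interconverts the 2 triose phosphates, had another order than Hk2. It was at 475 and 381 CPM in rod bipolar cells, 339 and 276 CPM in cones, 135 and 127 CPM in Müller glia, and 149 and 118 CPM in rods. Rod bipolar cells were at 3.18 (2.83 to 3.56) and 3.23 (2.61 to 3.96) times the rod level, and cones at 2.27 and 2.34 times. Müller glia and rods did not differ beyond their intervals. Pgk1, the first step that yields ATP, was at 286 and 254 CPM in cones, 283 and 179 CPM in rod bipolar cells, 75.1 and 101 CPM in Müller glia, and 178 and 158 CPM in rods. Cones were at 1.61 times rods in both libraries, and the order of cones and rod bipolar cells was within the intervals.

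Enolase 1 (Eno1) was the one glycolytic gene of the set with its highest level in Müller glia, at 1098 (1004 to 1199) and 1056 (937 to 1187) CPM. It was at 689 and 749 CPM in cones, 369 and 346 CPM in rod bipolar cells, and 618 and 636 CPM in rods, and these neighbours were apart in each library. Eno1 made up 97.8% and 98.3% of Eno1 and Eno2 UMIs in Müller glia, against 86.2% and 86.7% in rods. In cones the share was lower, at 77.5% and 74.0%. It was also lower in rod bipolar cells, at 71.0% (65.9 to 75.7) and 77.4% (68.7 to 84.7). Eno2 is known as the neuronal enolase. Pkm, pyruvate kinase, fell in the order cones, rods, rod bipolar cells and Müller glia, at 944 and 998, 764 and 785, 555 and 498, and 188 and 206 CPM, with every step outside the intervals. Its splice forms PKM1 and PKM2 cannot be told apart in these counts.

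The balance of Ldha and Ldhb RNA differed between cells. As read, Ldha had more UMIs than Ldhb in rods, cones, rod bipolar cells and Müller glia alike. Ldha was at 960 and 1003 CPM in cones, 421 and 358 CPM in rod bipolar cells, 221 and 195 CPM in Müller glia, and 1105 and 1077 CPM in rods. Rods and cones were apart under short-wavelength light but not under white light. Ldhb had another order, at 92.8 (66.9 to 125) and 74.9 (45.8 to 116) CPM in Müller glia and 52.5 and 60.9 CPM in cones, against 16.9 and 19.8 CPM in rods. Rod bipolar cells gave 2 UMIs of Ldhb under short-wavelength light and 0 under white light. The count of 0 allows up to 11.7 CPM (3 counts), which is below the level of cones and of rods in that library.

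As a share of Ldha and Ldhb UMIs, Ldhb took 29.6% (22.2 to 37.8) and 27.8% (17.9 to 39.6) in Müller glia. In cones it took 5.18% (4.28 to 6.21) and 5.73% (4.14 to 7.69), and in rods 1.51% (1.40 to 1.62) and 1.80% (1.62 to 2.01). The 3 gates were therefore apart in both libraries. Ldha in Müller glia was read at 19.99% and 18.1% of its rod level, close to the 12.6% and 12.7% that rod RNA gives. With that rod RNA taken away, an alternative chosen after the data were seen, Ldha took 47.4% (short-wavelength) and 44.4% (white) of the pair in Müller glia, so the 2 genes were then near parity. Ldhb in rods was at 18.3% and 26.4% of its Müller level, while the Müller markers in rods were at 0.469% and 0.553% of theirs, although the rod gate itself limits those markers. In 4.58% and 5.94% of rods both genes had a UMI, and in 0.237% and 0.301% Ldhb alone did.

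The balance of the transporter genes differed between cells as well. Slc16a1 (MCT1) was at 221 (180 to 269) and 176 (129 to 234) CPM in Müller glia, 154 and 132 CPM in cones, and 148 and 165 CPM in rods. In rod bipolar cells it was at 18.1 and 11.7 CPM, or 12.2% and 7.06% of rods, which is the rod background. Slc16a3 (MCT4) was at 30.1 (18.4 to 46.5) and 42.8 (21.3 to 76.5) CPM in rod bipolar cells, from 20 and 11 UMIs, and at 24.3 and 17.7 CPM in rods. Its level in rod bipolar cells was 1.24 (0.754 to 1.92) and 2.41 (1.19 to 4.38) times that in rods, so it was not apart from rods under short-wavelength light. In cones it was at 5.20 and 1.49 CPM, from 11 and 1 UMIs, near or below the rod background, and Müller glia gave 1 and 3 UMIs.

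Slc16a3 supplied 62.5% (43.7 to 78.9) and 78.6% (49.2 to 95.3) of the UMIs of the pair in rod bipolar cells. In rods it supplied 14.1% (13.3 to 14.9) and 9.70% (8.68 to 10.8), in cones 3.27% (1.65 to 5.78) and 1.11% (0.0281 to 6.04), and in Müller glia 0.990% and 6%. Rod bipolar cells were apart from the other 3 gates in both libraries. With rod RNA taken away, Slc16a1 took 1.61% and 0% of the pair there. A UMI of each gene in the same cell was found in 2.85% and 2.75% of rods. Slc16a7 (MCT2), another transporter gene of the family, had few UMIs in rods, 7 and 12. Bsg, the chaperone of MCT1 and MCT4, was highest in Müller glia as well, at 1507 and 1375 CPM in Müller glia, 499 and 566 CPM in cones, 438 and 529 CPM in rod bipolar cells, and 216 and 246 CPM in rods.

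**Figure D2:**
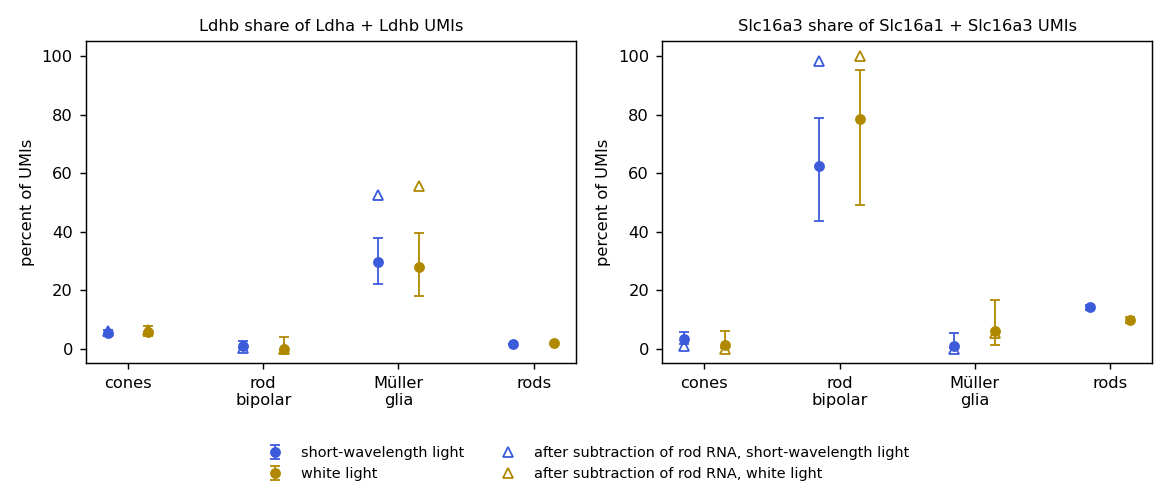
Share of Ldhb in Ldha and Ldhb UMIs (left panel) and of Slc16a3 in Slc16a1 and Slc16a3 UMIs (right panel), in percent, per gate; filled points are summed UMIs of 1 library with exact Clopper-Pearson 95% intervals, short-wavelength light on the left of white light, and open triangles are the shares after rod RNA was taken away. Müller glia stand out for Ldhb, at 29.6% and 27.8%, and rod bipolar cells for Slc16a3, at 62.5% and 78.6%.

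Genes with a pattern like the isoform genes over the 10 points of 5 gates (microglia included) and 2 libraries were ranked by Pearson's correlation of log2(CPM + 5) among 12590 genes. Ldha was nearest to Madd (r = 0.984), Cdk5r2 (0.984) and Ntng2 (0.982). Ldhb was nearest to Dst (0.982), Cxxc5 (0.970) and Lratd2 (0.968), and Slc16a1 to Lrrc8b (0.984), Larp1b (0.972) and Rasal2 (0.967). Slc16a3 was nearest to Rlf (0.927), Gm49797 (0.926) and 2410022M11Rik (0.893). The points share libraries, depth and rod RNA, so these values describe likeness of pattern.

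Within rods, the genes differed in how unevenly they were spread from cell to cell. Each rod was thinned to 1000 UMIs, which cost 5 rods of the short-wavelength library and 238 of the other, and the variance over the mean was set beside genes with a mean within 1.5-fold. Aldoa (1.28 and 1.31), Pkm (1.29 and 1.28) and Eno1 (1.23 and 1.23) lay above the upper quartile of like genes in both libraries. Ldha (1.17 and 1.15), Hk2 (1.14 and 1.12), Tpi1 (1.07 and 1.03) and Pgk1 (1.08 and 1.06) lay within the quartiles, so a high level alone did not give a wide spread. Ldhb, Slc16a1 and Slc16a3 were close to 1, the value that counting alone gives, at 1.01 to 1.05 for the first pair and 1.021 and 1.003 for Slc16a3. Genes of like low mean were close to 1 as well, with medians of 1.018 to 1.051, so this does not set them apart. Ldhb and Slc16a3 lay within the quartiles in both libraries. Slc16a1 did so under white light, and lay below the lower quartile under short-wavelength light (1.016 against 1.026). At this depth a UMI of Ldha was found in 64.6% and 63.1% of rods, of Hk2 in 51.4% and 51.1%, of Slc16a1 in 13.7% and 14.1%, and of Ldhb in 1.82% and 1.94%. Correlations over rods among the 45 pairs of members ranged over -0.007 to 0.172 in the short-wavelength library and over -0.017 to 0.223 in the white-light one, highest for Aldoa with Pkm in each library, and such weak values in sparse counts are given as a description.

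**Figure D3:**
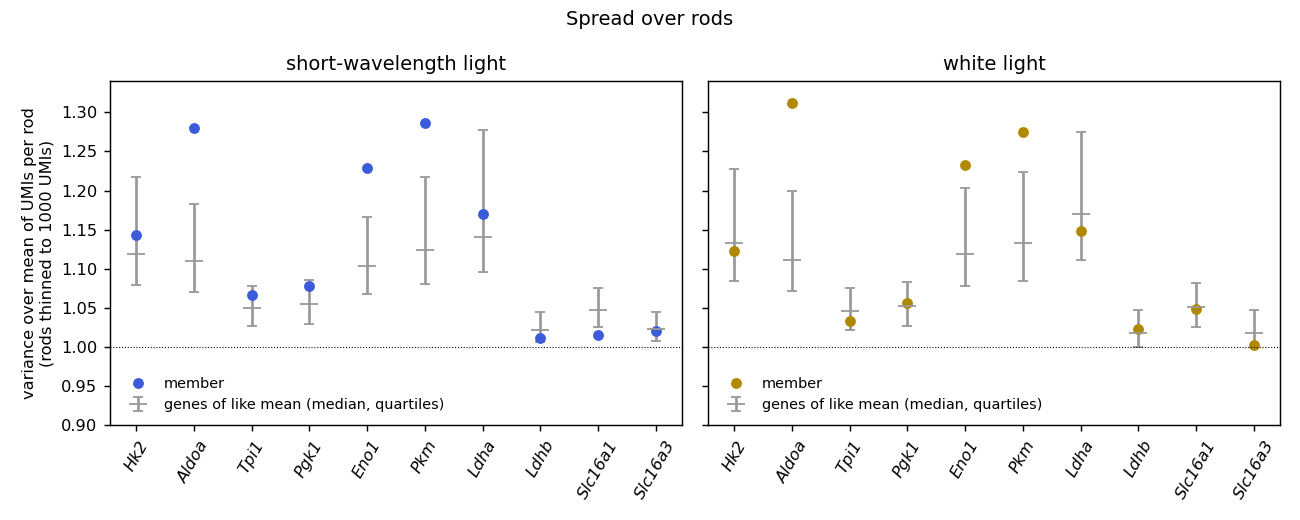
Variance over mean of UMIs per rod for each gene (coloured points), with rods thinned to 1000 UMIs, short-wavelength light on the left and white light on the right; grey marks are the median and quartiles of genes of like mean, and the dotted line at 1 is the value for counting error alone. Aldoa, Eno1 and Pkm lie above the grey range in both panels.

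Aldoa, Pkm and Eno1 also differed with the share of Malat1, a nuclear RNA that is high where a droplet holds a nucleus with little cytoplasm. Rods were divided into 5 parts by Malat1 share with common limits, and levels were taken over UMIs other than Malat1. Between the rods with the least and the rods with the most Malat1, Pkm differed 2.14-fold and 2.18-fold (short-wavelength and white light), at 1328 and 621 CPM in short-wavelength rods and at 1240 and 568 CPM in white-light rods. Aldoa differed 1.94-fold and 1.87-fold, Eno1 1.85-fold and 1.89-fold, Tpi1 1.78-fold and 1.69-fold, Pgk1 1.53-fold and 1.501-fold, and Ldhb 2.26-fold and 2.23-fold. Slc16a3 differed 1.15-fold (0.945 to 1.41) under short-wavelength light and 2.14-fold (1.39 to 3.43) under white light. Hk2 was at 0.995 (0.960 to 1.03) and 0.957 (0.899 to 1.02) times and Slc16a1 at 1.05 (0.971 to 1.14) and 0.964 (0.845 to 1.101) times, with 1 inside each interval, and Ldha was at 1.13 and 1.18 times. In all, 6 (short-wavelength) and 7 (white) of the 10 genes were at least 1.5-fold higher in the rods with the least Malat1, where 8.57% and 10.6% of all genes were, and the median over all genes was 0.841 and 0.875. Median UMIs of the 2 ends were 2456.5 and 2180 per rod under short-wavelength light, and 2673 and 2441 under white light. The part with the least Malat1 held 16.9% of short-wavelength rods and 29.2% of white-light rods, so the libraries differ in the mixture over which rods are summed. What sets the Malat1 share of a droplet was not tested.

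**Figure D4:**
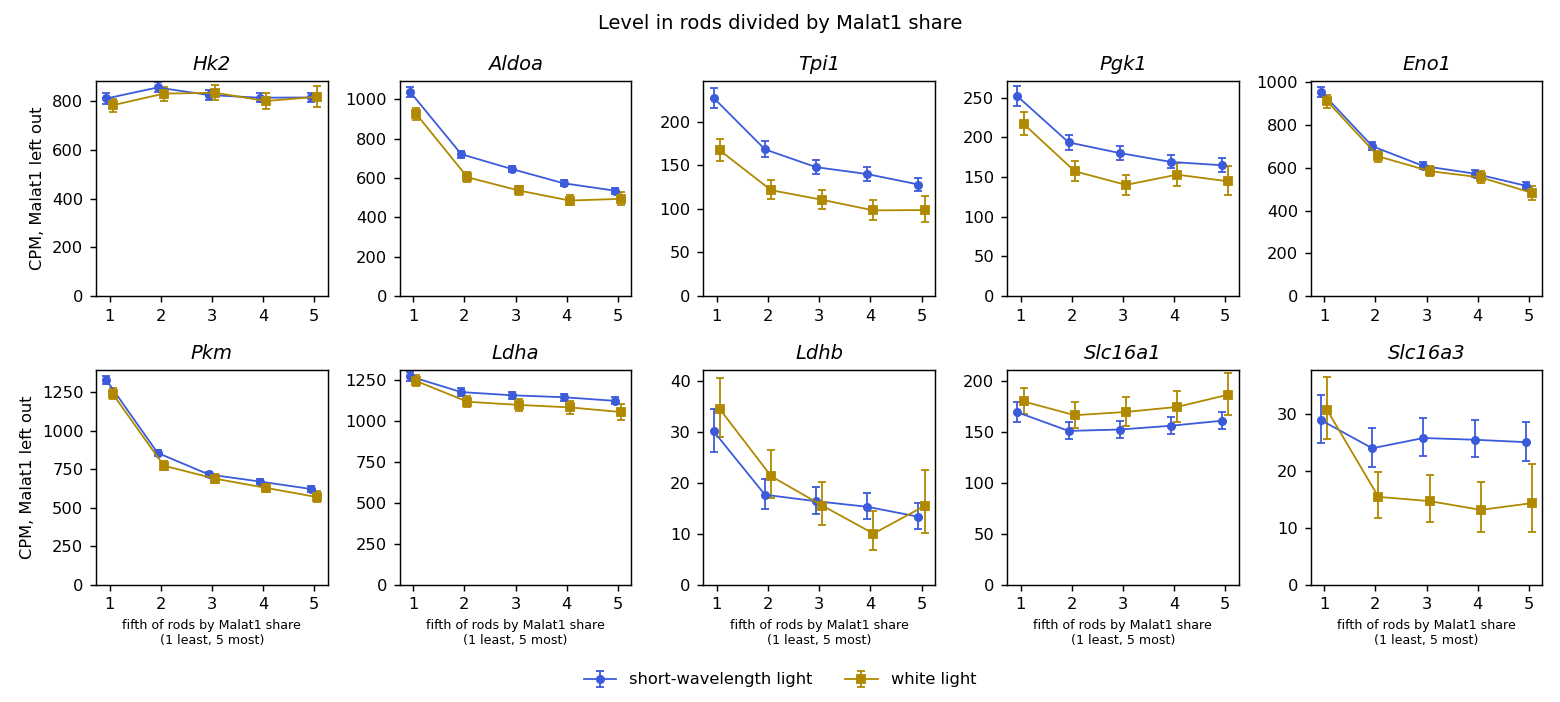
Level of each gene in rods divided into 5 parts by Malat1 share (part 1 least, part 5 most), in CPM over UMIs other than Malat1 (linear axis, from 0), short-wavelength light in blue circles and white light in ochre squares; bars are exact Poisson 95% intervals. Pkm, Aldoa and Eno1 fall with Malat1 in both libraries, Hk2 and Slc16a1 stay level, and the libraries part for Tpi1 in every part and for Slc16a3 in parts 2 to 5.

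The light comparison asked whether rearing under short-wavelength light went with another level of these genes. With all rods summed, the 10 genes as a set stood at nearly the same level in both libraries. The median ratio was 1.02 over the 10 genes and 1.005 over all 12968 genes tested. Within the Malat1 parts, Tpi1, Pgk1, Aldoa, Pkm, Eno1 and Ldha were above 1 in every part. Their ratios ran from 1.02 to 1.06 for Ldha up to 1.30 to 1.42 for Tpi1. Slc16a1 was under 1 in every part, and Hk2, Ldhb and Slc16a3 lay on both sides of 1. A median over all genes was not taken within the parts. Over all rods, Tpi1 and Slc16a3 were at least 1.2-fold higher under short-wavelength light and no member was 1.2-fold lower. So 2 of 10 passed this size, where 18.3% of all genes did. That share is near the background. In rods 8.51% of all genes passed upwards and 9.82% downwards.

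Tpi1 was at 149 CPM in short-wavelength rods and 118 CPM in white-light rods, a ratio of 1.27 (1.21 to 1.33). The ratio was 1.30 to 1.42 in every one of the 5 Malat1 parts and 1.23 to 1.30 over the other alternatives run. Slc16a3 was at 24.3 CPM in short-wavelength rods and 17.7 CPM in white-light rods, a ratio of 1.37 (1.204 to 1.56). This difference was not detected in the rods with the least Malat1, at 28.9 CPM under short-wavelength light and 30.7 CPM under white light (0.942, 0.749 to 1.19), and in the other 4 parts the ratio was 1.55 to 1.94. The white-light level was 13.1 to 15.4 CPM in those 4 parts and the short-wavelength level 23.99 to 25.8 CPM.

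Slc16a1 was at 148 CPM in short-wavelength rods and 165 CPM in white-light rods, a ratio of 0.898 (0.859 to 0.939) that stayed under 1 in all 5 parts, at 0.863 to 0.941. The 2 transporters thus differed in opposite directions, and Slc16a3 took 14.1% of the pair under short-wavelength light and 9.70% under white light, with intervals apart. Ldhb was at 16.9 and 19.8 CPM, a ratio of 0.856 (0.751 to 0.976), with 0.828 to 1.53 over the parts. Pgk1 was at 178 and 158 CPM (1.12, 1.07 to 1.17) and Aldoa at 644 and 606 CPM (1.06, 1.04 to 1.09), and both stayed above 1 in every part. Ldha, at 1105 and 1077 CPM (1.03), and Hk2, at 779 and 772 CPM (1.01), hardly differed. Pkm, at 764 and 785 CPM (0.973), and Eno1, at 618 and 636 CPM (0.972), were lower over all rods but at 1.04 to 1.11 and 1.03 to 1.07 within the parts, so their direction turned with the mixture of rods. Haemoglobin RNA, a sign of blood, was at 87.7 CPM in short-wavelength rods and 249.0 CPM in white-light rods. Leaving out rods with at least 3 haemoglobin UMIs, an alternative chosen after the data were seen, left Tpi1 and Slc16a3 past 1.2-fold.

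In cones Tpi1 was again higher, at 339 CPM under short-wavelength light and 276 CPM under white light, a ratio of 1.23 (1.04 to 1.45), but it was 1.03 with cells thinned to 1000 UMIs and 1.198 with TMM scaling, both under the 1.2-fold size. It was the 1 member to pass of 9 with enough UMIs, where 38.1% of all genes did (22.4% upwards and 15.7% downwards). The ratios of the other 8 lay between 0.861 and 1.16, and the interval of each held 1. In rod bipolar cells Pgk1 was at 283 CPM under short-wavelength light and 179 CPM under white light, a ratio of 1.58 (1.14 to 2.23). Tpi1 was at 475 and 381 CPM (1.25, 0.992 to 1.58), and Hk2, at the rod background in these cells, was at 0.790 (0.476 to 1.35). So 2 of 7 members passed upwards and 1 downwards, where 21.3% and 20.3% of all genes did (41.6% in all). With cells thinned to 1000 UMIs Tpi1 was at 1.14 in rod bipolar cells, and with a looser gate also at 1.14, so that of the 3 gates with a higher Tpi1 value, rods alone kept a ratio past 1.2-fold under every alternative that recomputed it. The gates share their 2 libraries and some rod RNA.

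In Müller glia 3 of 9 members passed the size upwards and 2 downwards, where 23.0% and 22.5% of all genes did (45.5% in all). Hk2 was at 95.01 CPM under short-wavelength light and 157 CPM under white light (0.604, 0.385 to 0.947). Aldoa was at 1.30 times, Ldhb at 1.24, Slc16a1 at 1.26 and Pgk1 at 0.743, and the interval of each of these 4 held 1. With 72 and 30 cells, differences of the size of those 4 were not detectable. The Ldhb share did not differ beyond its interval between light conditions in Müller glia, cones or rod bipolar cells.

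**Figure D5:**
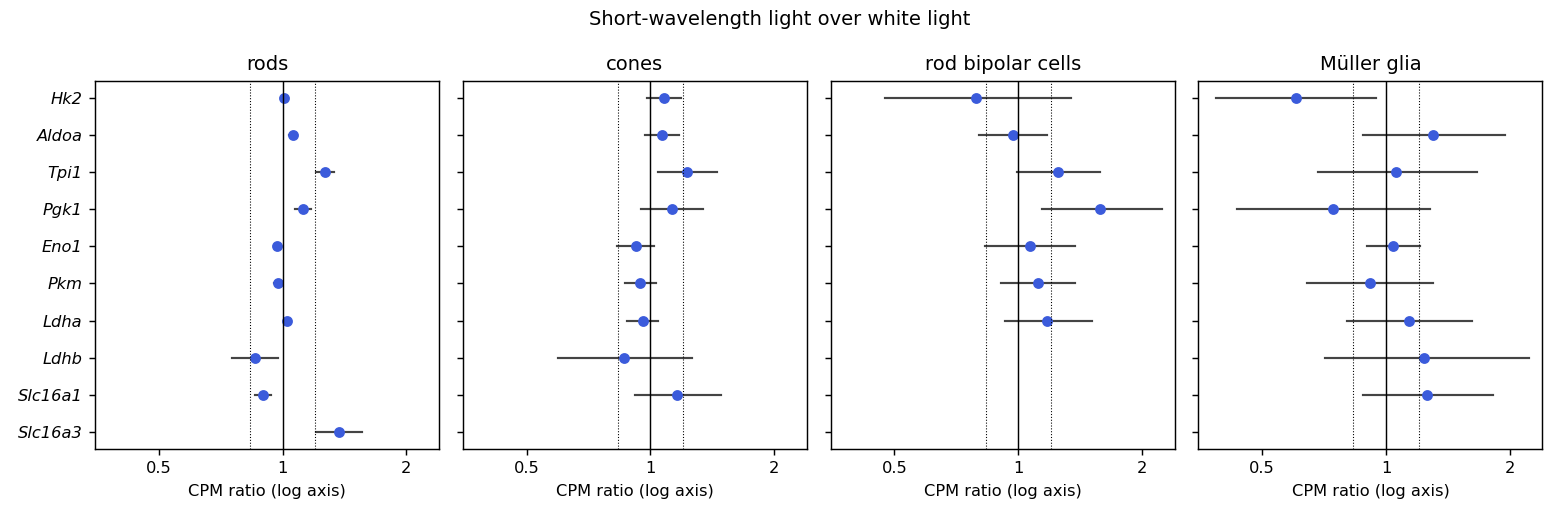
Ratio of CPM, short-wavelength light over white light, for each gene with at least 50 UMIs in a gate (log axis; the solid line is 1 and the dotted lines are 1.2-fold either way); points are 1 library against 1 and bars are exact conditional 95% intervals. Tpi1 lies to the right in rods, cones and rod bipolar cells, Slc16a3 lies to the right in rods, and intervals widen toward Müller glia.

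Other genes of the path and its branches were read in rods by list. Their ratios are of all rods summed and were not taken within the Malat1 parts or under the other alternatives. The libraries differ in the mixture of rods by Malat1 share, and how far this bears on these ratios was not tested. Of 13 further glycolysis genes with enough UMIs, 1 was 1.2-fold higher and 1 lower, with a median ratio of 1.03, where 8.51% of all genes tested in rods were higher and 9.82% lower. The same shares are the background of the lists that follow. The higher one was Pfkp, a phosphofructokinase gene, at 165 CPM under short-wavelength light and 135 CPM under white light (1.22, 1.17 to 1.28). The lower one was Pfkm, another phosphofructokinase gene, from 133 and 67 UMIs (0.766, 0.567 to 1.04). Gapdh, the most abundant of them, was at 1101 and 1173 CPM (0.939), and Pgam1 at 319 and 294 CPM (1.09).

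Of 13 genes for the entry of pyruvate into mitochondria, 2 were higher and 2 lower (median ratio 0.971), against 8.51% and 9.82% of all genes. Pdk1 was at 14.6 CPM under short-wavelength light and 9.46 CPM under white light (1.54, 1.29 to 1.84), and Pdk2 at 24.03 and 19.97 CPM (1.204, 1.06 to 1.36). Both encode kinases of pyruvate dehydrogenase, as does Pdk3, at 36.8 and 37.9 CPM (0.971). Pdp1, a phosphatase of the same complex, was at 9.77 and 12.7 CPM (0.770, 0.653 to 0.911), and Mpc2, a subunit of the mitochondrial pyruvate carrier, at 95.5 and 115 CPM (0.830, 0.787 to 0.876). Its partner Mpc1 was at 61.3 and 68.1 CPM (0.901).

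Among 12 regulators, 1 was higher, Pfkfb3 (1.62, 1.05 to 2.56), from 113 and 27 UMIs, and none was lower. Hif1a stood at 679 and 659 CPM (1.03), and Nxnl1, which encodes rod-derived cone viability factor, at 469 and 448 CPM (1.05). Among 8 glycogen genes, Pygl was higher (1.62, 1.05 to 2.56), from the same numbers of UMIs as Pfkfb3, and Pygm (0.722) and Ugp2 (0.791) were lower. None of 7 pentose phosphate genes passed, with ratios of 0.935 to 1.098. Of 4 genes of the glycerol and serine branches, Psat1 was lower, from 64 and 30 UMIs (0.824, 0.526 to 1.32). Of the transport partners, 2 had enough UMIs: Bsg was at 216 and 246 CPM (0.880, 0.848 to 0.912), within the size, and Ldhd was lower on 35 and 17 UMIs (0.795, 0.434 to 1.51).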

How the data were processed

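Each light condition was represented by a single 10x Genomics 3′ library of dissociated retina, of chemistry v3.1 or v4 by the protocol text. Tables of raw UMI counts were taken as the authors deposited them. Per the file headers they are output of Cell Ranger 9.0.0, and the submitters' processing notes name mm10 as build and list Seurat and edgeR. The annotation release and the counting of introns are not given in the sources used here.

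The cell filter asked for 300 genes or more and no more than 20% mitochondrial UMIs (kept: 16095 of 16106 short-wavelength, 5695 of 5707 white-light). Gates asked for at least 32 UMIs of cone markers over 5 genes, 24 of rod bipolar markers over 4 genes or 24 of Müller markers over 6 genes, with at most 7 UMIs of any other panel and at most 0.4% of UMIs from 6 rod genes (Gnat1, Nr2e3, Pde6b, Cnga1, Pde6a, Nrl). Rods had at least 5 UMIs and 0.5% from those genes and at most 4 cone, 2 bipolar, 3 Müller and 2 microglia UMIs. Prkca was left out of the bipolar gate because rods carried it. The rod bipolar gate also asked for at least 2 UMIs of Car8 and Vstm2b together. The microglia gate asked for at least 24 UMIs of microglia markers over 5 genes, with the same limits on other panels and rod genes. No gate took 811 short-wavelength and 535 white-light barcodes. Limits on other panels stood in for a doublet caller, and removal by Scrublet score at 0.8% per 1000 barcodes (12.9% and 4.57%) was an alternative. Cell names come from these markers alone.

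Sums of UMIs over the cells of a gate were the unit of analysis. Levels carry exact Poisson, shares exact Clopper-Pearson and ratios exact conditional binomial 95% intervals, for counting error only. A gene was compared by light with at least 50 UMIs over both libraries, and passed at 1.2-fold. No p-value was computed, since cells of 1 library are not replicates. All 10 members are named, with listed pathway genes of at least 50 UMIs and the 3 genes of most similar pattern for each isoform gene (at least 100 UMIs over the gates). Members, gene lists, gates and tests were chosen with earlier results of these data known. The steps were tested on simulated data. Python 3.11.15 with numpy 2.4.6, scipy 1.17.1 and scanpy 1.11.5 was used, and edgeR 4.0.16 in R 4.3.3 for TMM factors. Alternatives covered cell filter, gates, doublets, depth, scaling, averaging, size limits, rod RNA and haemoglobin.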

Additional observations from a re-analysis of the deposited data

Results flagged for a closer look

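Hk2 differed in opposite directions in 2 glial gates. In Müller glia it was at 95.01 CPM under short-wavelength light and 157 CPM under white light (ratio 0.604, 0.385 to 0.947), and in microglia, gated on 24 and 11 cells, at 563 and 333 CPM (1.69, 1.08 to 2.73). The difference between the gates was not tested, and the Müller values lie near the level that rod RNA gives.

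A second Aldoa row, kept out of every comparison, had counts above the limit that a count of 0 allows, at 4.99 CPM in short-wavelength rods and 6.05 CPM in white-light rods (220 and 103 UMIs, ratio 0.825, 0.650 to 1.05). It lies just upstream of Aldoa at chr7:126800790-126809108 on the same strand. Eno1b, a near copy of Eno1 whose reads counting may divide, was at 10.0 CPM in short-wavelength rods and 5.70 CPM in white-light rods (443 and 97 UMIs, ratio 1.76, 1.41 to 2.22), while Eno1 itself had 27247 and 10823 UMIs.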

How the results depend on the processing

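No paired analysis was possible because each light condition has 1 library, and for the same reason no library could be left out. Of 64 recomputed shares of Ldha, 59 moved by less than their interval, as did 54 of 64 shares of Slc16a1. With cells thinned to 1000 UMIs, the Ldha share was 97.9% in white-light cones, 100% in short-wavelength rod bipolar cells and 42.9% in white-light Müller glia. The Slc16a1 share was then 98.4% in short-wavelength and 100% in white-light cones, 100% in Müller glia of both libraries and 0% in white-light rod bipolar cells. With rod RNA taken away, the Ldha share was 47.4% in short-wavelength and 44.4% in white-light Müller glia. The Slc16a1 share was then 99.2% and 100% in cones, 1.61% and 0% in rod bipolar cells, and 100% in short-wavelength Müller glia.

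Counts of members past the size followed its limit: at 1.1-fold 5 passed in rods, 4 in cones and 5 in rod bipolar cells, and at 1.5-fold 0, 0, 1 and, in Müller glia, 1. In cones Tpi1 no longer passed with cells thinned (1.03), and 2 members passed, in place of 1, with Scrublet doublets removed, with cells thinned, with a mean over cells and with rod RNA taken away, and 0 passed with TMM scaling. In rod bipolar cells 0 passed with cells thinned. In Müller glia 1 passed with cells thinned, 3 with a mean over cells and 0 with a minimum of 200 UMIs. Of the 10 members, 5 lay above the upper quartile of spread in white-light rods at 1500 UMIs, in place of 3.

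Of 434 recomputed ratios 376 moved by less than their interval. In 31 the ratio came to lie on the other side of 1, 15 of them in Malat1 parts of rods (every part for Pkm and Eno1), 11 with cells thinned and 5 under other alternatives. Among these were 4 of ratios past 1.2-fold: Slc16a3 in rods with the least Malat1 (0.942) and, in thinned Müller glia, Aldoa (0.774), Pgk1 (1.25) and Ldhb (0.938). The thinned Müller values rest on few UMIs, and for the others the cause was not tested.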

Other observations

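Microglia, 24 short-wavelength and 11 white-light cells, carried another set of the 10 genes. Ldhb was at 232 (161 to 322) and 154 (79.4 to 268) CPM, higher than in rods by 13.7 (9.45 to 19.2) and 7.77 (3.97 to 13.7) times, and took 50.7% and 33.3% of Ldha and Ldhb UMIs. Hk2 was at 563 and 333 CPM and made up 96.6% and 92.9% of Hk2 and Hk1 UMIs, against 67.7% and 67.0% in rods. Slc16a1 gave 4 UMIs in each library, and Slc16a7 gave 9 and 4.

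Müller glia held Gbe1, the glycogen branching enzyme, at 636 and 584 CPM, against 46.2 and 45.7 CPM in rods. Gapdh was lower there, at 466 and 453 CPM, against 1101 and 1173 CPM in rods.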
